A study of Homo sapiens with 12 samples.

Results

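The let-7 and miR-98 family is the group of mature miRNAs, the short RNAs that guide silencing complexes to target mRNAs, that share the seed of let-7a. Its 9 guide strands (hsa-let-7a-5p, hsa-let-7b-5p, hsa-let-7c-5p, hsa-let-7d-5p, hsa-let-7e-5p, hsa-let-7f-5p, hsa-let-7g-5p, hsa-let-7i-5p and hsa-miR-98-5p) were taken by name from the 2652 mature miRNAs listed in each table, by a rule on names that uses no measured value. The 12 libraries were small RNA libraries of Huh7 cells, an established human hepatocellular carcinoma line, treated for 4 h. There were 4 libraries in each of 3 conditions: Control (DMSO without 4SU), DMSO (DMSO with 500 µM 4SU) and PlaB (the SF3B1 inhibitor pladienolide B with 500 µM 4SU). 4SU is a uridine analogue that newly made RNA takes up, and alkylation makes it read as C, so that T>C conversions mark miRNA made during the treatment. All groups share 1 cell line, the replicates are 4 independent experiments, and the PlaB dose differs between the labels and the methods and is not given here.

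Let-7 guide strands pair through their seed with mRNAs of growth-promoting genes such as RAS and HMGA2, and are abundant in differentiated tissues, adult liver included. The family is made from hairpins spread over many transcripts, and in embryonic and many tumour cells the LIN28 proteins bind let-7 hairpins and block their maturation. A mature guide strand in a silencing complex is usually stable for longer than the time needed to make it, so its total level and its newly made share can differ.

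The mature sequences, as given by RefSeq for GRCh38.p14, are shown because the members differ by so few bases that the seed, the counting of U positions and the assignment of reads all depend on them. They are written 5′ to 3′, with the seed (bases 2 to 8) in capitals.
let-7a-5p: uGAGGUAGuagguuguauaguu
let-7b-5p: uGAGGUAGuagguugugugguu
let-7c-5p: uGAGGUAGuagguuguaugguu
let-7d-5p: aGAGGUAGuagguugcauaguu
let-7e-5p: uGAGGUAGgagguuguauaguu
let-7f-5p: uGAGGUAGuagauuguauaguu
let-7g-5p: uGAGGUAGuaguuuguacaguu
let-7i-5p: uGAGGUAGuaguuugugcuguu
miR-98-5p: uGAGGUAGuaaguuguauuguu

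All 9 members are 22 bases long and have the same base at 14 positions. Counted from 1 at the 5′ end, with the base of let-7a first, let-7c differs from let-7a only by A19G, let-7e only by U9G and let-7f only by G12A. The members carry between 7 (let-7d) and 10 (let-7i and miR-98) U positions at which a conversion can be read. Where let-7a has U and another member has C, a conversion and the other member's own base look alike at that position. This holds for U16C in let-7d and for U18C in let-7g and let-7i, each of which also differs from let-7a at another position. RefSeq lists 2 further mature miRNAs with this seed, miR-4458, with 6 reads over the 12 libraries, and miR-4500, with 0.

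The 9 guide strands come from 12 hairpins on 8 chromosomes (GRCh38, positions from RefSeq, host genes from GENCODE 44). let-7a is made from 3 hairpins: MIRLET7A1 (chr9:94175957-94176036, plus strand), which lies in the lncRNA MIRLET7A1HG and is fully exonic in 1, partly exonic in 2 and intronic in 2 of its transcripts, MIRLET7A2 (chr11:122146522-122146593, minus strand), intronic in the lncRNA MIR100HG, and MIRLET7A3 (chr22:46112749-46112822, plus strand), exonic in the lncRNA MIRLET7BHG. let-7f is made from MIRLET7F1 (chr9:94176347-94176433, plus strand), 310 bases after MIRLET7A1, and from MIRLET7F2 (chrX:53557192-53557274, minus strand), intronic in the protein-coding gene HUWE1. The other members have 1 hairpin each. MIRLET7D (chr9:94178834-94178920) follows MIRLET7F1, MIRLET7B (chr22:46113686-46113768) follows MIRLET7A3, and MIR98 (chrX:53556223-53556341) lies beside MIRLET7F2 in HUWE1. MIRLET7G (chr3:52268278-52268361) is intronic in WDR82, and MIRLET7I (chr12:62603686-62603769) is exonic in 1 lncRNA and intronic in MIRLET7IHG. MIRLET7E (chr19:51692786-51692864) is intronic in SPACA6, between MIR99B and MIR125A, and MIRLET7C (chr21:16539828-16539911) lies 658 bases after MIR99A in MIR99AHG, intronic in 125 and exonic in 3 of its transcripts.

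The libraries held 1522210 to 3880241 counted miRNA reads, of which 5868 to 16628 were let-7 or miR-98 reads (0.307% to 0.429%). DMSO replicates 1 and 2, re-amplified and pooled from several runs according to the labels, were the deepest. The hepatocyte miRNAs miR-122 (both strands), miR-192 and miR-194 summed to between 100894 and 153879 CPM (counts scaled to a common library size) in every library. Of 10 miRNAs that mark blood, endothelial, stromal, nerve or muscle cells, 7 never exceeded 10.2 CPM and the list summed to between 486 and 763 CPM, with the endothelial miR-126-3p at 385 to 632 CPM. Their part in the let-7 values was not tested.

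Over the 12 libraries let-7a held 58.1% of the family's CPM and let-7f 29.3%. let-7e held 7.13%, let-7g 3.80%, and each of the other members under 1%. In CPM let-7a ranked 49 and let-7f 62 of 2652 miRNAs. let-7a stood at 2217, 2383, 2047 and 1889 CPM in Control replicates 1 to 4, at 2621, 2480, 2114 and 1637 CPM in DMSO and at 2410, 2228, 2075 and 1774 CPM in PlaB, so the 3 conditions overlapped. let-7f, the second most abundant member, stood at 817, 983, 1073 and 1054 CPM in Control, at 1093, 1166, 1323 and 1132 CPM in DMSO and at 1075, 1113, 1377 and 856 CPM in PlaB. The lowest DMSO value of let-7f lay near its highest Control value, and the PlaB values overlapped both. let-7e ranged from 210.2 to 346 CPM and let-7g from 114 to 192 CPM. let-7c (12.5 to 42.0 CPM), let-7i (8.78 to 35.1 CPM), let-7d (2.21 to 10.8 CPM) and miR-98 (0.418 to 15.1 CPM) were rare. let-7b had reads in 9 libraries and at most 4.06 CPM. By mean CPM the order was let-7a, let-7f, let-7e, let-7g, let-7c, let-7i, miR-98, let-7d and let-7b. Ranges of neighbours in that order overlapped for let-7c and let-7i, let-7i and miR-98, miR-98 and let-7d, and let-7d and let-7b. The first 4 members and let-7c were separated from each other in every library.

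The CPM of let-7a and let-7f depends on how reads with several mapping places were counted. Of the reads of these 2 members, 99.4% mapped to more than 1 place, against 0.324% for the 7 members with 1 hairpin. For let-7f, with 2 loci, the number of multi-mapping reads was even in 12 of 12 libraries, and so was its number of conversions. Among 25 miRNAs with 2 loci, 83.7% of such read numbers were even, against 47.3% among 31 miRNAs with 1 locus. For let-7a, with 3 loci, the number was a multiple of 3 in only 3 of 12 libraries, although its conversions were even in 11. The let-7f numbers are those that counting a read once at each of its places would give, so their conversions are not independent counts. The tests and intervals below use the deposited counts as they stand, and values with counts divided by the number of loci are given where they change a call. Divided by the number of loci, the means were 544 CPM for let-7f and 719 CPM for let-7a. How the let-7a reads were counted over its loci was not settled, so division may not suit that member. Since each guide strand is the same at all its loci, its reads cannot be assigned to one host transcript.

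Total levels of the family did not pass the test in either comparison. The summed CPM was 3539 ± 166 (SD, n = 4) in Control, 3869 ± 460 (SD, n = 4) in DMSO and 3724 ± 447 (SD, n = 4) in PlaB. Read counts of 537 miRNAs were tested with edgeR's quasi-likelihood test and Benjamini-Hochberg adjustment, at a threshold of 0.05, and 8 members entered the test, all but let-7b. None of the 8 passed in DMSO against Control, where 5.96% of all tested miRNAs passed, and none passed in PlaB against DMSO, where 0.372% passed. No member reached an unadjusted p of 0.05 in either comparison, and DESeq2 called no member either. In DMSO against Control, the log2 fold changes of the 8 members ran from 0.06 (let-7a) to 0.53 (miR-98), and their median was 0.21 (0.04 over all 537). Between PlaB and DMSO they ran from -0.10 (let-7f) to 0.30 (miR-98), and their median was 0.04 (-0.05 over all 537). For let-7a in PlaB against DMSO, the log2 fold change was -0.06 with a 95% interval of -0.33 to 0.20, and for let-7f it was -0.10 with an interval of -0.40 to 0.19. A change in total level of 2-fold thus lay outside the interval for the most abundant members, whereas for miR-98 the interval ran from -1.13 to 1.73.

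T>C conversions were rare in the family. Summed over the 9 members, the rate (conversions per covered T) in Control was 0.00382%, 0.0403%, 0% and 0.0212% in replicates 1 to 4. In DMSO it was 0.0515%, 0.0664%, 0.0717% and 0.0657%. In PlaB it was 0.0291%, 0.00895%, 0.0143% and 0.00959%. All 4 DMSO values stood above all Control and PlaB values, and the PlaB values lay within the range of Control. The means were 0.0163% ± 0.0185 (SD, n = 4) in Control, 0.0638% ± 0.0086 (SD, n = 4) in DMSO and 0.0155% ± 0.0094 (SD, n = 4) in PlaB. Pooled, these were 49 conversions in 259772 covered Ts (95% Wilson interval 0.0143% to 0.0249%), 242 in 392644 (0.0543% to 0.0699%) and 35 in 229988 (0.0109% to 0.0212%). These intervals hold counting error alone, because PCR copies and reads counted at several loci are not separate molecules. No p is given for a sum over chosen members.

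All other miRNAs together had a rate of 0.0271% ± 0.0040 (SD, n = 4) in Control, 0.270% ± 0.022 (SD, n = 4) in DMSO and 0.153% ± 0.015 (SD, n = 4) in PlaB. The DMSO rate of the family was 3.91 times that of Control, against 9.96 times for all other miRNAs. Without Control replicate 2 these were 7.64 and 10.1 times, and without Control replicate 3 they were 2.93 and 10.6 times. With 1 Control or DMSO library left out, the family's value thus ran from 2.93 to 7.64. After subtraction of the Control mean, the family's PlaB rate was -0.0179 of its DMSO rate, against 0.516 for all other miRNAs. Without the subtraction the family's ratio was 0.243 against 0.565. The subtracted ratio rests on small differences: by replicate number it was 0.529, -1.20, 0.200 and -0.262, and leaving out Control replicate 2, which held 32 of the 49 Control conversions, gave 0.129. The 7 members with 1 hairpin alone gave 0.245.

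**Figure D1:**
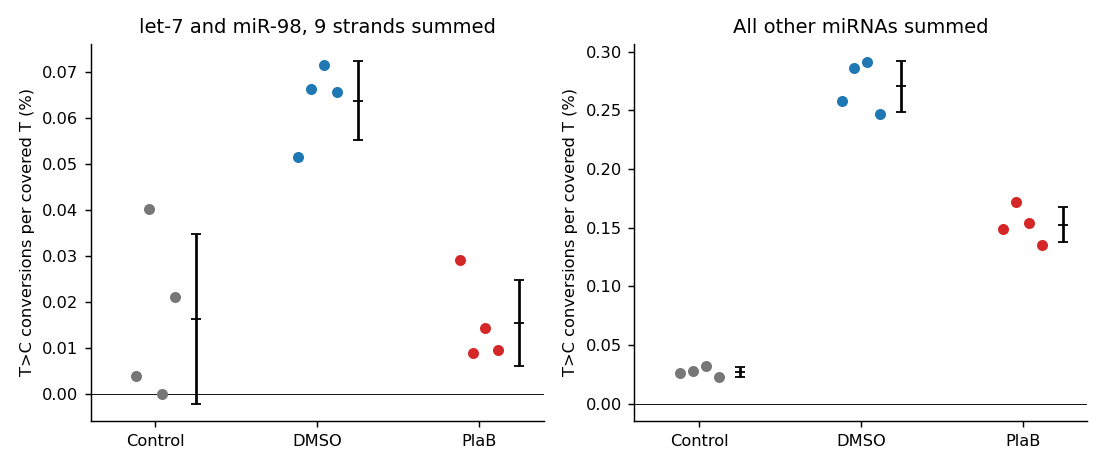
T>C conversions per covered T, in percent, for the 9 strands summed (left) and for all other miRNAs summed (right), with 1 point per library and the mean ± SD of 4 libraries beside each group. The axes differ in scale. The family's PlaB libraries lie at the level of its Control libraries, while those of all other miRNAs lie between Control and DMSO.

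Members differed widely in their labelling. In DMSO, pooled over 4 libraries, let-7d had a rate of 3.10% and let-7c of 1.82%, against 0.0846% for let-7g, 0.0482% for let-7f, 0.0429% for let-7a and 0.0319% for let-7e. Single libraries moved the values of let-7d and let-7g: without DMSO replicate 1 let-7d had 2 conversions in 208 covered Ts (0.962%), and without DMSO replicate 2 let-7g had 3 in 10502 (0.0286%). Over the 239 miRNAs with at least 10 conversions in the 12 libraries and covered Ts in each, the median DMSO rate was 0.339%, and let-7d ranked 20, let-7c 37, let-7g 209, let-7f 219, let-7a 222 and let-7e 227 from the highest. let-7c and let-7d held 67 of the family's 242 DMSO conversions in 0.902% of its DMSO reads. In DMSO 15.5% of let-7c reads and 20.3% of let-7d reads carried a conversion, against 0.353% of let-7a reads. let-7i, miR-98 and let-7b had no conversion in any library. For let-7i this was 0 of 2139 covered Ts in DMSO (3 conversions would be 0.140%), for miR-98 0 of 758 (0.396%) and for let-7b 0 of 106 (2.83%), so a rate like that of let-7a was below what these depths could show. The DMSO rate of the family sum was exceeded by 50 of the 59 non-members that stayed over 1000 CPM.

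Conversions were then compared between conditions with edgeR on the conversion counts, with the log of covered Ts as offset, over the same 239 miRNAs, of which 6 were members. In DMSO against Control, the comparison that shows labelling above background, 4 of the 6 passed as higher (let-7a, let-7c, let-7d and let-7g), where 80.8% of all tested miRNAs did. This count, and the counts and medians of the 6 members that follow, are a description. Outside DMSO, let-7d had 0 conversions, let-7e 8 and let-7c 9, so these members reached the minimum of 10 only through DMSO. In PlaB against DMSO, 2 of the 6 fell (let-7a and let-7f), where 35.6% of all fell. In PlaB against Control 1 of the 6 was higher (let-7g), where 53.1% of all were. Without the re-amplified DMSO replicates 1 and 2, none of the 6 rose in DMSO against Control and let-7a alone fell in PlaB against DMSO, with 143 and 49 miRNAs called in all. The median log2 fold change of the 6 members in DMSO against Control was 2.26 (1.62 with members at 0 set to the bound of 3 conversions) against 3.67 over all 239. For PlaB against DMSO it was -2.44 (-2.07 at the bound) against -1.22, and for PlaB against Control -0.36 against 2.30. The comparisons share the DMSO or the Control libraries, so these values are not independent of each other.

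let-7a, the most abundant member, carried 2, 22, 0 and 2 conversions in Control replicates 1 to 4, 30, 35, 18 and 16 in DMSO, and 2, 2, 4 and 0 in PlaB. Its rates were 0.00605%, 0.0431%, 0% and 0.00495% in Control, 0.0329%, 0.0482%, 0.0469% and 0.0556% in DMSO, and 0.00607%, 0.00506%, 0.0135% and 0% in PlaB. Every DMSO library was above every PlaB library, and Control replicate 2 lay within the DMSO range. The fall in PlaB against DMSO was 7.18-fold (log2 fold change -2.84, SE 0.81, adjusted p = 0.00382), and the exact two-sided permutation test of the 4 rates against 4 gave p = 0.0286, the smallest that 70 labelings allow. With let-7a and other multi-locus counts divided by their number of loci, a choice made after seeing the data, the adjusted p was 0.0619. The rise in DMSO against Control was 3.10-fold (log2 fold change 1.63, SE 0.71, adjusted p = 0.0319), with an exact permutation p of 0.0571. It rested on single libraries: without Control replicate 2 the log2 fold change was 3.52 (adjusted p = 0.00170), while leaving out any of Control replicates 1, 3 and 4 or DMSO replicates 2, 3 and 4 gave adjusted p-values from 0.0512 to 0.0949, DESeq2 gave 0.0767 and division by loci 0.158. In all, 18 such permutation tests were run on the members, and their p-values are not adjusted. They exchange libraries freely, although the replicate numbers pair the libraries. Exact sign flips within the 4 replicate numbers, a test added after seeing the data, cannot go below p = 0.125, which they gave for let-7a in both comparisons, for let-7c in both and for let-7f in PlaB against DMSO, each with 1 direction in 4 of 4 pairs.

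let-7f carried 0, 10, 0 and 2 conversions in Control, 12, 10, 18 and 16 in DMSO and 0, 0, 2 and 4 in PlaB, all of them even numbers. Its rates in DMSO were 0.0316%, 0.0293%, 0.0748% and 0.0800%, and those in PlaB were 0%, 0%, 0.0102% and 0.0273%. The groups did not overlap, although the highest PlaB library came close to the lowest DMSO library. The fall was 5.61-fold (-2.49 on the log2 scale, SE 0.98, adjusted p = 0.0409, exact permutation p = 0.0286). It missed the threshold when any of 5 libraries was omitted (DMSO replicates 3 and 4 and PlaB replicates 1, 2 and 3, highest adjusted p 0.122), without DMSO replicates 1 and 2 together (0.0532), with DESeq2 (0.0830), and with counts divided by loci (0.0960). In DMSO against Control the log2 fold change was 1.77 (SE 0.90, adjusted p = 0.0617), and without Control replicate 2 it was 3.68 (adjusted p = 0.00844). Without PlaB replicate 1, which enters only through the shared spread, its adjusted p was 0.0476.

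let-7c, whose hairpin lies in MIR99AHG, had the highest DMSO rate of the members with conversions in all 4 DMSO libraries. It carried 0, 0, 0 and 4 conversions in Control, 18, 20, 11 and 4 in DMSO and 2, 1, 2 and 0 in PlaB, in 184, 330 and 189 reads. Its rates in DMSO were 1.53%, 2.50%, 1.93% and 1.09%, above every Control (0%, 0%, 0% and 0.913%) and every PlaB library (0.966%, 0.174%, 0.333% and 0%). let-7c reached the minimum of 10 conversions for the test only through DMSO. All p-values of let-7c in either comparison, adjusted, permutation or sign-flip, are therefore a description and not support for a difference. The difference in DMSO against Control was 6.76-fold (log2 fold change 2.76, SE 1.09, adjusted p = 0.0192). It was 6.24 on the log2 scale without Control replicate 4 (adjusted p = 0.00189), and missed the threshold without Control replicate 1 (0.0588), Control replicate 3 (0.0606) or DMSO replicate 2 (0.0596). In PlaB against DMSO the log2 fold change was -2.38 (SE 1.08, adjusted p = 0.0700), which missed the threshold, with an exact permutation p of 0.0286. Without PlaB replicate 1 its adjusted p was 0.0454.

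let-7c was the only one of the 6 tested members with all 4 DMSO rates above all 4 Control rates, which held for 61.9% of the 239 miRNAs. All 4 DMSO rates lay above all 4 PlaB rates for let-7a, let-7c and let-7f, which held for 38.1% of all, and no member had all 4 PlaB rates above all 4 Control rates, which held for 32.6% of all.

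let-7g comes from the WDR82 intron. It had no conversion in the 4 Control libraries, 0, 9, 2 and 1 in DMSO and 12, 3, 0 and 0 in PlaB. The 12 conversions of PlaB replicate 1 lay in 7 reads. Pooled, the 15 PlaB conversions lay in 10 reads (0.985% of let-7g reads) and the 12 DMSO conversions in 12 reads (0.756%). Per covered T, the pooled rate of let-7g was 0.0846% in DMSO and 0.165% in PlaB. Control had 0 in 9714 covered Ts, for which 3 conversions would be 0.0309%, and these rates were 2.74 and 5.35 times that limit. Such ratios leave out the counting error of the rates (95% Wilson intervals 0.0484% to 0.148% and 0.100% to 0.273%). Without DMSO replicate 2 the DMSO rate was 0.0286%, below the limit. Against Control the edgeR test gave adjusted p = 0.0232 and 0.0129, while the exact permutation test of the rates gave p = 0.143 and 0.429. The PlaB value lay in replicates 1 and 2 alone, and without PlaB replicate 1 the adjusted p against Control was 0.125. With a replicate block it was 0.0655, and with DESeq2 0.0776. The DMSO value missed the threshold without DMSO replicate 2 (0.124), Control replicate 2 (0.0523), and with DESeq2 (0.123). PlaB against DMSO gave 0.75 on the log2 scale (SE 1.20, adjusted p = 0.675, 95% interval -1.61 to 3.11), and without PlaB replicate 1 it gave -0.86.

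let-7e, the third most abundant member, did not pass the test of DMSO against Control. It carried 0, 0, 0 and 7 conversions in Control, 4, 3, 1 and 0 in DMSO and 0, 0, 0 and 1 in PlaB, in 15203, 25061 and 15704 covered Ts. All 7 Control conversions were in replicate 4, the highest rate of any let-7e library (0.177%). Its DMSO against Control estimate was -0.59 on the log2 scale (SE 1.33, adjusted p = 0.663), with a 95% interval of -3.19 to 2.01, and it turned to 3.58 without Control replicate 4 (adjusted p = 0.108) and to 1.10 with a replicate block (adjusted p = 0.546). In PlaB against DMSO it was -1.77 (SE 1.58, adjusted p = 0.391).

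let-7d, one of the rarest members, had conversions only in DMSO replicates 1 and 2, 12 and 2 of them, in 69 DMSO reads. These are the libraries that were re-amplified. Control and PlaB had 0 conversions in 294 and 293 covered Ts, for which 3 conversions would be 1.02% in each. The pooled DMSO rate of let-7d, 3.10%, was 3.04 and 3.03 times these limits. Such ratios leave out the counting error of the rate (Wilson interval 1.85% to 5.13%). Without DMSO replicate 1 the DMSO rate of let-7d was 0.962%, below both limits. All its conversions lay in DMSO, through which alone it entered the test, so its adjusted p against Control (0.0453) is not support for a difference. The exact permutation test of its rates gave p = 0.429, and the edgeR test of PlaB against DMSO gave an adjusted p of 0.0741. With a replicate block the adjusted p against Control was 0.187, and without DMSO replicate 1 it was 0.190. Leaving out 8 of the 12 libraries, 1 at a time, took the adjusted p past the threshold.

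**Figure D2:**
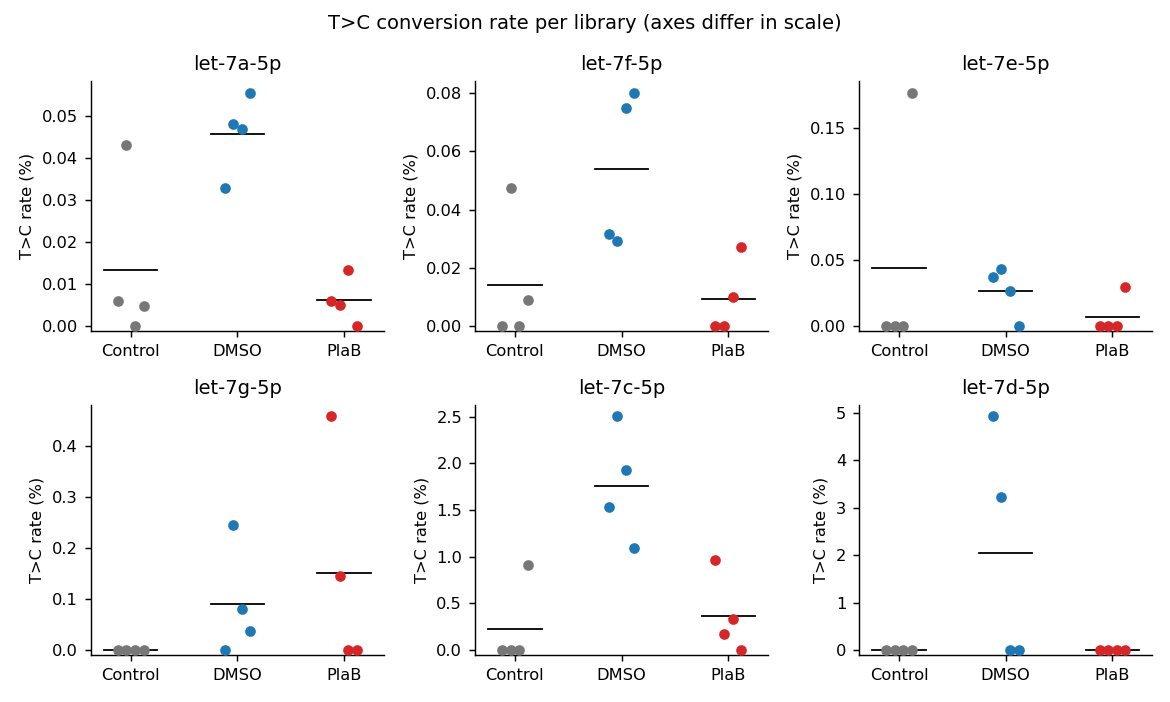
T>C conversion rate in percent of the 6 tested members, with 1 point per library and a line at the mean of 4. Each panel has its own axis. let-7a, let-7f and let-7c stand highest in DMSO, 1 Control library is well above the other Control libraries for let-7a, let-7f, let-7e and let-7c, and the PlaB mean of let-7g comes from 2 libraries.

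Because several let-7 hairpins share an annotated host gene with miR-99, miR-100 or miR-125 hairpins, the guide strands of these neighbours offer values from the same host genes and libraries. Their sequences carry other seeds and fewer U positions than let-7a.
miR-99b-5p: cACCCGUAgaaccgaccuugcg
miR-125a-5p: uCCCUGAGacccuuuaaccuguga
miR-99a-5p: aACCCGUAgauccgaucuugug

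In the SPACA6 intron, let-7e lies 104 bases after MIR99B and 389 bases before MIR125A. In DMSO, miR-99b-5p had rates of 0.536%, 0.595%, 0.617% and 0.564%, and miR-125a-5p had rates of 0.312%, 0.300%, 0.297% and 0.259%. let-7e had 0.0376%, 0.0436%, 0.0267% and 0%. In each of the 4 libraries let-7e was below both neighbours. Pooled, its rate was 17.8 times below that of miR-99b-5p and 9.35 times below that of miR-125a-5p. The 3 hairpins are annotated within introns of the same gene, and whether they are cut from 1 transcript here was not tested. In PlaB let-7e was again below both in 4 of 4 libraries.

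In MIR99AHG the order was the opposite. let-7c was above its neighbour miR-99a-5p (0.539%, 0.488%, 0.547% and 0.436%) in 4 of 4 DMSO libraries, with a pooled rate 3.59 times as high, while in PlaB it was above it in 2 of 4. An exact two-sided sign-flip test over 4 libraries cannot go below p = 0.125, and it gave 0.125 (0.15 after adjustment over 6 comparisons) for the 5 comparisons with 1 direction in 4 of 4 libraries and 0.750 for let-7c in PlaB. The guide strands of one hairpin cluster also differed in level, with miR-99b-5p at 6797, let-7e at 265, miR-125a-5p at 6830, miR-99a-5p at 2372 and let-7c at 26.4 mean CPM.

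**Figure D3:**
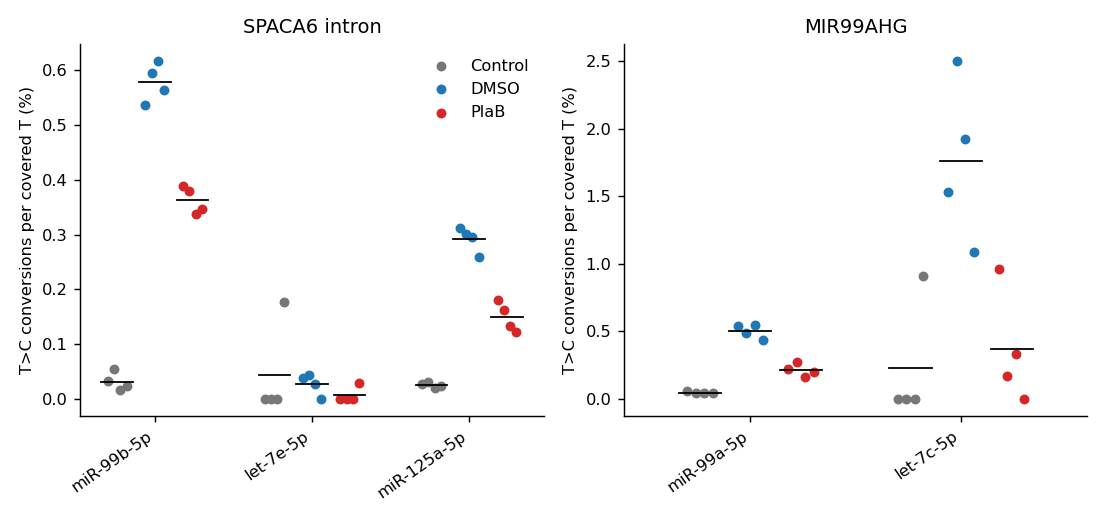
T>C conversion rate in percent by library for let-7e and its neighbours in the SPACA6 intron (left) and for let-7c and miR-99a-5p of MIR99AHG (right), with a line at the mean of 4 libraries. let-7e lies below both neighbours in every DMSO library, and let-7c lies above miR-99a-5p in every DMSO library.

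The neighbours rose in DMSO against Control in 5 of 5 cases, where 80.8% of all 239 tested miRNAs did. Their log2 fold changes ran from 3.35 (miR-100-5p) to 4.15 (miR-99b-5p). In PlaB against DMSO, 4 of the 5 fell, where 35.6% of all did. These were miR-125b-5p (log2 fold change -1.40), miR-99a-5p (-1.23), miR-125a-5p (-0.97) and miR-99b-5p (-0.67, adjusted p = 0.0455), while miR-100-5p had -1.68 (SE 0.70) and missed the threshold (adjusted p = 0.05003). miR-125b-5p has 2 loci, in MIR100HG and MIR99AHG, and 99.6% of its reads mapped to more than 1 place. Its conversions were even in every library, so, as for let-7f, they are not independent counts. Fold changes of let-7 members and of neighbours were not tested against each other. The estimates of let-7a and let-7f lay lower than those of the 5 neighbours. However, let-7f shares no annotated host gene with them, and let-7a does so through MIRLET7A2 alone. let-7c and let-7e, whose only hairpins share host genes with neighbours, had -2.38 (SE 1.08) and -1.77 (SE 1.58), and neither passed. let-7g, which shares none, had 0.75 (SE 1.20). Unlike let-7a and let-7f in PlaB, 4 of the 5 neighbours stayed above Control there (log2 fold changes 2.10 to 3.49), where 53.1% of all did. The value of miR-100-5p was 1.67 (adjusted p = 0.0789).

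The other strands of the let-7 hairpins were nearly absent. Of 11 such strands 10 had a read, and only let-7a-3p (5.08 to 33.8 CPM) and let-7e-3p (1.52 to 15.1 CPM) were tested for read counts. let-7a-3p had 22.5 ± 10.3 CPM (SD, n = 4) in Control and 10.1 ± 5.2 CPM in DMSO, which missed the threshold (log2 fold change -1.12, SE 0.45, adjusted p = 0.213). Conversions were seen in DMSO replicate 1 only, with 4 in let-7a-3p and 1 in let-7e-3p.

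The miRNAs whose level over the 12 libraries was most like that of the summed family, among 154 non-members over 100 CPM in every library, were miR-196a-5p (Pearson r of log2 CPM 0.83), miR-28-3p (0.70), miR-148b-3p (0.68), miR-140-3p (0.67) and miR-221-3p (0.63). The libraries share their depth and scaling across miRNAs, so these values describe likeness only. By DMSO rate, the 5 nearest of the non-members over 1000 CPM were miR-191-5p (0.0703%), miR-23b-3p (0.0737%), miR-151a-5p (0.0440%), miR-106b-5p (0.0887%) and miR-148b-3p (0.0914%), against 0.0616% for the family. None of these 5 passed the edgeR test of PlaB against DMSO, where 35.6% of all tested miRNAs fell. The lowest adjusted p-values were 0.0523 (miR-151a-5p) and 0.0741 (miR-148b-3p). The 5 were picked by their DMSO rate, which this comparison also uses, so these values are a description. The log2 fold changes of the 5 ran from -1.53 (miR-151a-5p) to -0.55 (miR-106b-5p).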

How the data were processed

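The 12 libraries of the SLAMseq experiment in Huh7 cells were used, with conditions and replicate numbers from the sample labels. The authors trimmed reads with Trim Galore and ran the nf-core SLAMseq workflow (SLAM-DUNK, GRCh38) with miRBase mature miRNAs in place of 3′UTRs, keeping multi-mapping reads and masking SNPs. The deposited values are counts (reads, multi-mapping reads, T>C conversions, covered Ts), CPM and a T>C rate as a fraction. CPM and rates were recomputed from the counts. The summed length and T content per miRNA were used only to count annotated loci.

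Read counts were tested with edgeR 4.0.16 (R 4.3.3, TMM factors, filterByExpr, 1 fit of 3 conditions), and conversions likewise with log covered Ts as offset, over all miRNAs with at least 10 conversions. Adjustment was by Benjamini-Hochberg over all miRNAs tested. DESeq2 1.42.0, other filters, size factors, fewer libraries and a replicate block were alternatives. Tests were checked on simulated data. The rest was computed in Python 3.11.15 (scipy 1.17.1, pandas 2.3.3).

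Depth was 1522210 to 3880241 reads per library, and a condition without conversions was given a limit of 3. The methods describe 4 independent experiments. Deviations of log2 CPM from condition means correlated between libraries of the same number with a median r of 0.557 (lowest 0.208), against -0.203 for different numbers, so the numbers were taken to pair the libraries. Blocked values are given where they change a call.

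The members follow a rule on names alone, but this family, the named miRNAs and the lists were picked with earlier results of these data known. Named were the 9 members, the other strands of their hairpins, miRNAs with the same seed, the miR-99, miR-100 and miR-125 neighbours, and the 5 miRNAs nearest in level and the 5 nearest in DMSO rate.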

Additional observations from a re-analysis of the deposited data

Results flagged for a closer look

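Among 48 groups of 4 libraries (levels and rates of the members and of their sum), 4 had 1 library farther from the other libraries than Dixon's 95% critical value allows. About 1 in 20 groups does so by chance if values are normally distributed, which does not hold for rates from a few conversions. All 4 were T>C conversion rates, and none was a level. For let-7a, Control replicate 2 had the highest rate of its group, 0.0431%, from 22 conversions, a library without 4SU. For let-7c, Control replicate 4 had 0.913%, from 4 conversions in 438 covered Ts. For let-7e, Control replicate 4 had 0.177%, from 7 conversions, and PlaB replicate 4 had 0.0297%, from 1 conversion. In these let-7c and let-7e groups every other library was at 0%, so any conversion at all would have been flagged. The comparisons without these Control libraries are given with the members above, and the source of the conversions was not tested.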

How the results depend on the processing

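Conversions per member limit these results: 6 of 9 members had enough to be tested, and let-7d was called from 14. Reads of let-7a and let-7f mapped to several loci, and how those of let-7a were counted was not settled. Where a call depended on a setting, the cause was not tested.

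The number of miRNAs called by reads in DMSO against Control (32) was 8 over 100 CPM in every library (fewer miRNAs tested), 60 with the replicate block and 17 without DMSO replicates 1 and 2, and ranged from 15 to 37 with 1 library left out. In PlaB against DMSO (2) it was 0 for the 8 libraries alone, with RLE size factors and without DMSO replicates 1 and 2, 1 over 100 CPM, 5 without a filter, 6 with DESeq2 and 6 with the replicate block, and 0 to 1 with 1 library left out. For conversions over 100 CPM, DMSO against Control gave 127 in place of 194 and PlaB against Control 83 in place of 128. PlaB against DMSO (86) gave 49 without DMSO replicates 1 and 2. With 1 library left out these 3 ranged over 170 to 195, 106 to 126 and 61 to 93. The replicate block changed the calls of let-7d in DMSO against Control and let-7g in PlaB against Control, and no other member's call in edgeR. Exact sign flips within replicate numbers gave p = 0.125, the smallest possible with 4 pairs, for the 4 rate differences with a permutation p of 0.0286 (let-7a and let-7f in PlaB against DMSO, let-7c in both comparisons).

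The family's DMSO rate was 0.454% as a mean over members, 0.0492% from members over 100 CPM and 0.0815% with counts divided by loci (added after seeing the data), and its PlaB rate 0.0651% and 0.0252% under the first and last of these. With 1 library left out the rates were 0.00835% to 0.0218% in Control, 0.0612% to 0.0679% in DMSO and 0.0110% to 0.0177% in PlaB, and the subtracted PlaB/DMSO ratio was -0.150 to 0.129.

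Without DMSO replicates 1 and 2, log2 fold changes of reads turned to -0.15 (let-7a) and -0.35 (miR-98) in DMSO against Control, and to 0.17 (let-7a), 0.011 (let-7c), -0.015 (let-7g) and -0.067 (let-7i) in PlaB against DMSO, none past the threshold. With the replicate block, let-7e conversions in DMSO against Control turned to 1.10.

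With 1 library left out, signs also turned for changes that passed no threshold. For reads in DMSO against Control the log2 fold changes ranged from -0.044 to 0.18 (let-7a), -0.27 to 0.69 (let-7d) and -0.035 to 0.44 (let-7i). For reads in PlaB against DMSO they ranged from -0.17 to 0.064 (let-7a), -0.37 to 0.11 (let-7c), -0.17 to 0.49 (let-7d), -0.0033 to 0.24 (let-7e), -0.20 to 0.037 (let-7f), -0.12 to 0.12 (let-7g), -0.17 to 0.40 (let-7i) and -0.20 to 0.62 (miR-98). For conversions they ranged from -0.99 to 3.58 for let-7e in DMSO against Control and from -0.86 to 2.01 for let-7g in PlaB against DMSO. In PlaB against Control they ranged from -1.85 to 0.67 (let-7a, above 0 without Control replicate 2), -0.28 to 3.86 (let-7c), -4.19 to 1.81 (let-7e, above 0 without Control replicate 4) and -1.91 to 1.20 (let-7f, above 0 without Control replicate 2).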
